A study of Mus musculus with 2 samples.

Results

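The replication-dependent histone genes were taken as the deposited rows whose symbol begins with Hist1h, Hist2h, Hist3h or Hist4h. There were 68 such symbols among 23961 in all, and 63 of them reached a floor of 1 FPKM in either library, as did 11121 genes of any kind. By the class named in the symbol, these 63 were 5 linker histone H1 genes, 15 H2A, 19 H2B, 11 H3 and 13 H4 genes. FPKM are fragments scaled to the length of the transcript and to all mapped fragments of a library, a scaling that is least certain for RNAs as short as these.

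RNA was sequenced from sorted bone marrow haematopoietic stem cells of untreated C57BL/6 mice, with 1 library labelled Per2def (Per2-deficient) and 1 labelled Per2wt (wild-type). The labels name no Per2 allele, no sort markers, no age, no time of day and no number of animals per library. Per2 RNA itself was at 6.16 FPKM in the library labelled Per2def and 1.96 FPKM in the library labelled Per2wt, which is 3.13-fold higher in the first and goes against a loss of the transcript. Mutant alleles that keep a promoter may still be transcribed, so the Per2 level does not settle the genotype and directions are stated by label alone. With 1 library per genotype there was no replicate check and no test, and each difference compares 2 libraries and not 2 genotypes. Differences of single genes are given on the log2(FPKM + 1) scale as Per2def minus Per2wt, and adding 1 makes the differences of genes at low levels look smaller than they are.

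Replication-dependent histones are the bulk histones that a cell makes during S phase to package newly copied DNA. Their genes lie in clusters, have no introns in their coding parts, and give RNAs that end in a conserved stem-loop in place of a poly(A) tail. The stem-loop binding protein SLBP holds that stem-loop and carries the RNA through processing, translation and decay. H2A, H2B, H3 and H4 form the nucleosome core and H1 binds the linker DNA between nucleosomes. Many gene copies share the work, and the H4 copies are known to encode the same protein. The libraries were made from oligo(dT)-selected RNA, so an untailed RNA is measured only as far as it came through that selection or carried a tail.

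The stem-loops are shown first because they define these RNAs and because, where found, their letters set H4 apart from the other classes. Each line gives a 26-base stretch of the GENCODE M21 transcript (GRCm38), 5′ to 3′ in DNA letters, with its strand. Capitals mark the stem-loop of 16 bases, which is 2 paired stem arms of 6 bases around a loop of 4.
Hist1h4h (H4, chr13:23531453-23531478, plus strand): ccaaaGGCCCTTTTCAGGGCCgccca
Hist1h4d (H4, chr13:23581945-23581970, plus strand): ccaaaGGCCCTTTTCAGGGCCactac
Hist1h4b (H4, chr13:23757361-23757386, plus strand): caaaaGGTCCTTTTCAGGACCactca
Hist1h4i (H4, chr13:22040961-22040986, minus strand): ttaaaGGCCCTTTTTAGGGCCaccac
Hist2h4 (H4, chr3:96262934-96262959, minus strand): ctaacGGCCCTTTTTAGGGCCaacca
Hist1h2ao (H2A, chr13:21810893-21810918, plus strand): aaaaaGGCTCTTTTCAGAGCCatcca
Hist1h2bj (H2B, chr13:22043633-22043658, plus strand): ccaaaGGCTCTTTTCAGAGCCacgca
Hist1h3b (H3, chr13:23752815-23752840, plus strand): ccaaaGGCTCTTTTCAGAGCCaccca
Hist1h1e (H1, chr13:23621777-23621802, minus strand): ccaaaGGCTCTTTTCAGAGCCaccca

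A match to the consensus histone stem-loop was found on the sense strand of annotated transcripts of 42 of the 63 genes, 21 to 58 bases after the stop codon (median 31.0). Of the 12 H4 genes with a match, 10 had the 5′ arm GGCCCT and 2 the 5′ arm GGTCCT. All 30 matched genes of the other classes had GGCTCT, namely 3 H1, 9 H2A, 10 H2B and 8 H3 genes. The other 21 genes held no match in these transcript models, some of which are short, such as that of Hist1h4k at 312 bases. A stem-loop past the end of a model could not be found, so the lack of a match does not show that it is absent. A match is a description of the letters and says nothing of how well the RNA is processed.

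Histone H4 RNA was lower in the library labelled Per2def, and the other classes differed little. Summed over its 13 genes, H4 was at 155 FPKM in the library labelled Per2def and at 214 FPKM in the library labelled Per2wt, a ratio of 0.722 (log2 difference of the sums -0.47). H2A was the most abundant class and was close to level. It was at 274 FPKM in the library labelled Per2def and 260.3 FPKM in the library labelled Per2wt, a ratio of 1.05. Its log2 difference of the sums was 0.07, near the median of 0.05 over all genes. With the libraries scaled to a median ratio of 1 it was 0.02. Reads that fit several copies are split among them, and a class sum is spared this only where the copies are of like length. The sums are the primary measure here. FPKM divides by length, so a split among copies of unlike length can still move a sum. All 63 genes together summed to 695 FPKM in the library labelled Per2def and 763 FPKM in the library labelled Per2wt (ratio 0.910). The 50 genes outside H4 summed to 539.9 FPKM in the library labelled Per2def and 549 FPKM in the library labelled Per2wt (ratio 0.984).

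The remaining classes were lower by a small margin. H2B summed to 100.2 FPKM in the library labelled Per2def and 109.8 FPKM in the library labelled Per2wt (ratio 0.912). H3 summed to 85.1 FPKM in the library labelled Per2def and 92.9 FPKM in the library labelled Per2wt (ratio 0.916), and H1 to 80.5 FPKM labelled Per2def and 85.6 FPKM labelled Per2wt (ratio 0.940). H4 made up 22.3% of the summed FPKM of all members in the library labelled Per2def and 28.1% in the library labelled Per2wt. The sum of H4 was 1.82 times that of H3, its partner in the nucleosome core, in the library labelled Per2def and 2.31 times in the library labelled Per2wt.

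**Figure D1:**
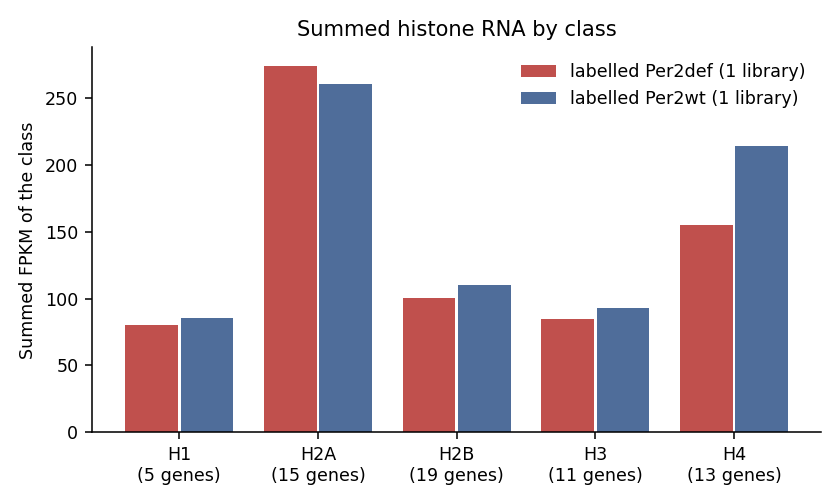
Summed FPKM (y axis, linear from 0) of the genes of each histone class (x axis) in the library labelled Per2def (red, left) and the library labelled Per2wt (blue, right), 1 library each and so without error bars. H4 stands at 155 FPKM labelled Per2def against 214 FPKM labelled Per2wt, while the bars of each other class are close to level.

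By single genes, 46 of the 63 were lower in the library labelled Per2def and 17 were higher. Over all 11121 genes, 38% were lower and 62% higher. With the libraries scaled to a median ratio of 1, 50 of the 63 were lower, and 49.2% of all genes were lower and 50.8% higher. The median log2 difference of the 63 was -0.12, against 0.05 over all genes. A difference of at least 1.5-fold lower on the log2(FPKM + 1) scale was met by 6 members, 5 of them H4 genes and 1 an H2B gene, where 1.7% of all genes met it and 0.733% once small and predicted RNAs were set aside. None of the 63 was at least 1.5-fold higher, against 2.61% of all genes and 1.29% of those without small and predicted RNAs. The 1 member at least 2-fold lower stands beside 0.998% of all genes and 0.159% of that smaller set.

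The classes parted in these counts. In H4, 12 of 13 genes were lower, with a median of -0.53 and a range from -0.71 to 0.19. H3 had 9 of 11 lower (median -0.15; 11 of 11 under the scalings to a median ratio of 1 and to the upper quartile), H2B 14 of 19 (median -0.13) and H1 5 of 5 (median -0.07). H2A had 9 of 15 higher with a median of 0.11, and a share of 9 in 15 is close to the 62% of all genes, so it is not a result about H2A.

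**Figure D2:**
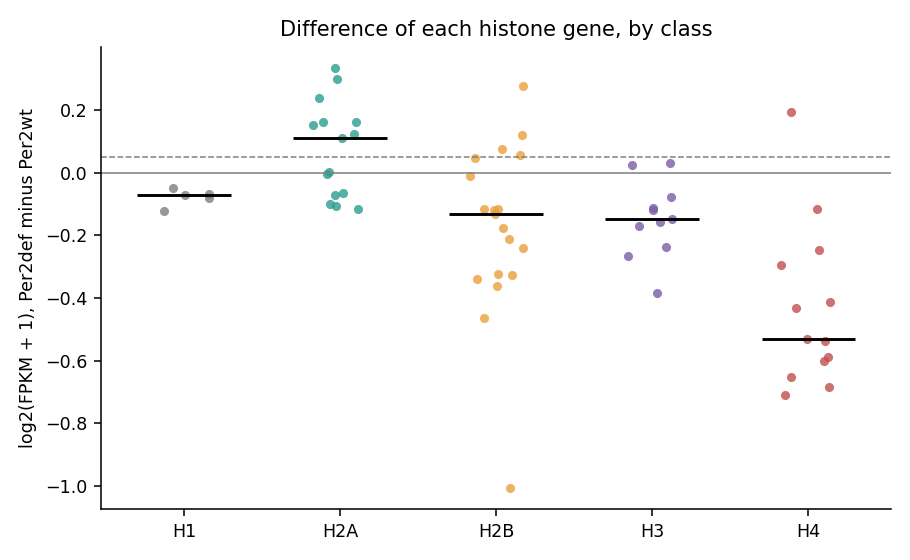
Difference in log2(FPKM + 1), Per2def minus Per2wt as labelled (y axis), of each of the 63 histone genes, by class (x axis, points spread sideways at random). Black bars are class medians, the solid grey line is 0 and the dashed line the median of all genes (0.05). The H4 points lie lowest as a group (median -0.53), with Hist1h4i alone above 0, and the lowest single point is the H2B gene Hist3h2ba.

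H4 pairs with H3 in the tetramer at the centre of the nucleosome. Hist1h4h (ENSMUSG00000060981.7, chr13:23531050-23531519, plus strand) had the widest difference of the class, at 12.6 FPKM in the library labelled Per2def and 21.3 FPKM in the library labelled Per2wt (log2 difference -0.71). Hist1h4d (ENSMUSG00000061482.7, chr13:23581598-23582735, plus strand) was at 15.1 FPKM in the library labelled Per2def against 24.96 FPKM in the library labelled Per2wt (-0.69). Hist1h4m stood at 7.80 FPKM in the library labelled Per2def against 12.8 FPKM in the library labelled Per2wt (-0.65). Hist1h4h and Hist1h4d lie in the same part of the chromosome 13 cluster and Hist1h4m in another. For these genes the level in the library labelled Per2def was 0.593 to 0.608 of that in the library labelled Per2wt.

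Further copies followed at smaller differences. Hist1h4k was at 12.7 FPKM in the library labelled Per2def against 19.8 FPKM in the library labelled Per2wt (-0.60), and Hist1h4f at 12.1 FPKM labelled Per2def against 18.8 FPKM labelled Per2wt (-0.59). Hist1h4n, the most abundant H4 symbol by the mean of both libraries, was at 17.6 FPKM in the library labelled Per2def against 25.97 FPKM in the library labelled Per2wt (-0.54). Its value is the sum of 2 rows of that symbol, at 12.9 and 4.66 FPKM in the library labelled Per2def and 19.6 and 6.39 FPKM in the library labelled Per2wt, and both rows were lower. Hist1h4b was at 9.13 FPKM labelled Per2def against 13.6 FPKM labelled Per2wt (-0.53). Hist1h4a was at 7.71 FPKM labelled Per2def against 10.8 FPKM labelled Per2wt (-0.43) and Hist1h4c at 11.4 FPKM labelled Per2def against 15.5 FPKM labelled Per2wt (-0.41). All of these lie in the Hist1 cluster.

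A smaller difference was seen in Hist1h4j and in both H4 genes outside the Hist1 cluster. Hist1h4j was at 14.95 FPKM in the library labelled Per2def against 17.95 FPKM in the library labelled Per2wt (-0.25). Hist2h4, on chromosome 3, was at 7.20 FPKM labelled Per2def against 9.06 FPKM labelled Per2wt (-0.30). Hist4h4, the single member on chromosome 6, was at 4.03 FPKM labelled Per2def against 4.45 FPKM labelled Per2wt (-0.12), the lowest H4 level in both libraries. Hist1h4i (ENSMUSG00000060639.5, chr13:22040636-22041362, minus strand) was the only H4 gene with the higher value in the library labelled Per2def, at 22.3 FPKM in the library labelled Per2def and 19.4 FPKM in the library labelled Per2wt (log2 difference 0.19). Without it the H4 sum was 132 FPKM in the library labelled Per2def and 195 FPKM in the library labelled Per2wt (ratio 0.679). Hist1h4i and Hist2h4, printed above, have the loop TTTT, where 9 of the other 10 matched H4 genes have TTTC and Hist1h4a has TCTC.

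**Figure D3:**
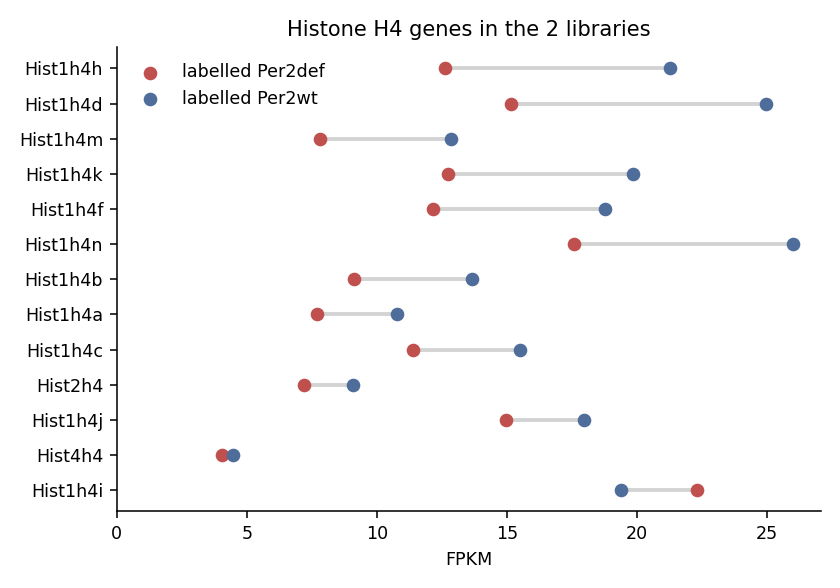
FPKM (x axis, linear from 0) of the 13 histone H4 genes (y axis, ordered by their difference) in the library labelled Per2def (red) and the library labelled Per2wt (blue), joined by a grey line. In 12 genes the red point lies left of the blue one, and in Hist1h4i it lies right, at 22.3 FPKM labelled Per2def against 19.4 FPKM labelled Per2wt.

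The H4 difference was also set beside the sequence that H4 genes share with other members. Stretches of 50 bases found in a transcript of another member made up 0 to 89.8% of an H4 gene's transcripts (median 39.5%). The 6 H4 genes under 30% shared had a median of -0.27, with 5 lower, and the 7 at 30% or more a median of -0.59, with 7 lower. Hist1h4d, with 10.2% shared, had one of the widest differences (-0.69). Hist2h4, with 1.01% shared, was at -0.30, and Hist4h4, with 0% shared, had the narrowest of the lower differences. These shares count the whole annotated transcript, which in Hist1h4d runs 770 bases past the stem-loop. The part of shared reads in the H4 difference was not tested.

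H2A sits with H2B at the outer faces of the nucleosome core. Hist1h2ao (ENSMUSG00000094248.1, chr13:21810465-21810944, plus strand) was the most abundant histone symbol, at 68.5 FPKM in the library labelled Per2def and 61.5 FPKM in the library labelled Per2wt (log2 difference 0.15). That is a sum of 2 rows, at 34.2 and 34.3 FPKM in the library labelled Per2def and at 30.8 FPKM each in the library labelled Per2wt, so the rows may not be separate measurements. Of its 50-base stretches, 93.5% are also found in another member. Hist2h2aa1, also a sum of 2 rows, was level at 48.2 FPKM in the library labelled Per2def against 48.4 FPKM in the library labelled Per2wt (-0.01). The widest differences of the class were in Hist2h2ab, at 5.28 FPKM in the library labelled Per2def against 3.99 FPKM in the library labelled Per2wt (0.33), and Hist1h2ac, at 16.1 FPKM labelled Per2def against 12.9 FPKM labelled Per2wt (0.30). Hist1h2ag was at 18.6 FPKM labelled Per2def against 17.1 FPKM labelled Per2wt (0.11). No H2A gene was past 1.5-fold, and the class ran from -0.12 to 0.33.

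H2B genes spread more widely, from -1.01 to 0.28. Hist3h2ba (ENSMUSG00000056895.4, chr11:58948920-58949533, plus strand) was at 0.883 FPKM in the library labelled Per2def and 2.78 FPKM in the library labelled Per2wt (log2 difference -1.01), a ratio of 0.317, and it is the member past 2-fold. With a pseudocount of 0.1 FPKM its difference was -1.55. Hist3h2bb-ps, annotated as a processed pseudogene, was at 0.873 FPKM in the library labelled Per2def against 1.58 FPKM in the library labelled Per2wt (-0.46), a difference that became -0.79 with the smaller pseudocount. These are among the lowest members, where few fragments set the value.

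The most abundant H2B genes differed little. Hist1h2bc was at 13.5 FPKM labelled Per2def against 12.7 FPKM labelled Per2wt (0.08) and Hist2h2bb at 10.2 FPKM labelled Per2def against 11.1 FPKM labelled Per2wt (-0.12). Hist1h2bn was at 10.2 FPKM labelled Per2def against 9.29 FPKM labelled Per2wt (0.12) and Hist1h2bg at 9.32 FPKM labelled Per2def against 8.98 FPKM labelled Per2wt (0.05). The sign of Hist1h2bg turns when the libraries are scaled to a median ratio of 1. Hist1h2bq and Hist1h2br, near-identical neighbours, have the same value as each other in each file, 1.001 FPKM labelled Per2def and 1.17 FPKM labelled Per2wt, so they are not separate measurements. They are the members just inside the floor of 1 FPKM.

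H3 genes of the Hist1 cluster were lower in 9 of 9 cases, where 38% of all genes were lower, and those of the Hist2 cluster were level. Of the 50-base stretches of an H3 gene, 24.8 to 93.9% are found in another member, so these genes are not fully separate measurements. Hist1h3f was at 2.45 FPKM in the library labelled Per2def against 3.50 FPKM in the library labelled Per2wt (-0.38). Hist1h3h was at 5.50 FPKM labelled Per2def against 6.81 FPKM labelled Per2wt (-0.27) and Hist1h3e at 9.90 FPKM labelled Per2def against 11.3 FPKM labelled Per2wt (-0.17). The H3 gene with the highest level, Hist2h3c2, is a sum of 2 rows of equal value and was at 16.6 FPKM labelled Per2def against 16.4 FPKM labelled Per2wt (0.02). Its neighbour Hist2h3b was at 11.4 FPKM labelled Per2def against 11.1 FPKM labelled Per2wt (0.03). Both of these turn below 0 when the libraries are scaled to a median ratio of 1 or to their upper quartile.

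Linker histone genes had the narrowest range, from -0.12 to -0.05. Hist1h1e was at 23.6 FPKM in the library labelled Per2def against 25.8 FPKM in the library labelled Per2wt (-0.12) and Hist1h1d at 20.99 FPKM labelled Per2def against 22.1 FPKM labelled Per2wt (-0.07). Hist1h1c was at 17.5 FPKM labelled Per2def against 18.6 FPKM labelled Per2wt (-0.08) and Hist1h1b at 9.21 FPKM labelled Per2def against 9.74 FPKM labelled Per2wt (-0.07). Of their 50-base stretches, 0 to 8.54% are found in another member for 4 of the 5 genes, and 32.0% for Hist1h1e. Hist1h1e overlaps the annotated span of Hist1h2be on the same strand, so reads there cannot be told apart with certainty.

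A total of 5 symbols stayed under the floor. Just outside it was Hist2h2aa2, at 0.915 FPKM in the library labelled Per2def and close to 0 in the library labelled Per2wt. Hist1h2aa, a testis histone gene, was at 0.270 FPKM labelled Per2def and 0.249 FPKM labelled Per2wt. Hist1h2ap and Hist2h3c1 were close to 0 in both libraries, and Hist1h1t, the testis linker histone gene, was listed at 0 in both. The testis H2B gene Hist1h2ba was inside the floor, at 1.99 FPKM labelled Per2def and 2.01 FPKM labelled Per2wt.

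By place in the genome, the H4 difference was spread over the Hist1 cluster. The 51 Hist1 genes on chromosome 13 summed to 565 FPKM in the library labelled Per2def and 629 FPKM in the library labelled Per2wt (ratio 0.898). The 8 Hist2 genes on chromosome 3 summed to 112.2 FPKM labelled Per2def and 112.7 FPKM labelled Per2wt (ratio 0.996), and the 3 Hist3 genes on chromosome 11 to 13.2 FPKM labelled Per2def and 16.8 FPKM labelled Per2wt (ratio 0.787). Members less than 150000 bases apart form 4 stretches of chromosome 13. In the stretch chr13:23531050-23764406, 21 of 28 genes were lower, and in chr13:21715763-21837530, 15 of 17, where 38% of all genes were lower. The stretch chr13:22035164-22043676, which holds Hist1h4i, had 4 of 5 genes higher, where 62% of all genes were, with Hist1h2bj among them at 7.71 FPKM labelled Per2def against 6.19 FPKM labelled Per2wt (0.28). The lower one was Hist1h2bk, at 6.19 FPKM labelled Per2def against 8.10 FPKM labelled Per2wt (-0.34). Without their H4 genes the 2 larger stretches had ratios of summed FPKM of 0.962 and 0.999.

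Neighbouring H2A and H2B genes often face away from each other across a common upstream region. There were 11 such pairs with starts 173 to 302 bases apart, and the members of 6 had the same direction, 3 both lower and 3 both higher. In 9 of the 11 the difference of the H2A gene was above that of its H2B partner. Over all genes 62% were higher and 38% lower, and the class medians were 0.11 for H2A and -0.13 for H2B. The counts are therefore not read as a result about pairs. In the pair Hist1h2ac and Hist1h2bc both were higher (0.30 and 0.08), and in the pair Hist1h2ai and Hist1h2bl both were lower (-0.12 and -0.13).

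Upstream sequence also differed by class. The stretches below are from RefSeq (GRCm38.p6), from 120 bases before to 10 after the annotated start, for the H4 genes with the 2 widest lower differences and for the H4 gene that was higher. Capitals mark GGTCCG, which lies in the element of H4 promoters bound by the factor HINFP in human cells, and TATAAA.
Hist1h4h (chr13:23530924-23531053, plus strand): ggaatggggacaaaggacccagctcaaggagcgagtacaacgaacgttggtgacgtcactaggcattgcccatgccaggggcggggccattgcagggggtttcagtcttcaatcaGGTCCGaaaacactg
Hist1h4d (chr13:23581448-23581577, plus strand): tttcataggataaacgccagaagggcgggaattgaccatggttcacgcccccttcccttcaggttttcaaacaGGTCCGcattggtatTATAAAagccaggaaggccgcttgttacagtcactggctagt
Hist1h4i (chr13:22041353-22041482, minus strand): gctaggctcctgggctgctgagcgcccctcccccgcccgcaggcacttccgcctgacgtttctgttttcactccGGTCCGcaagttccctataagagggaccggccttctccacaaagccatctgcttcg

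Promoter windows of 300 bases were found for 57 of the 63 genes and searched on both strands. GGTCCG was in 11 of 12 H4 windows, against 9.44% of all 27025 genes with a window, 0 of 15 H2A, 1 of 16 H2B, 1 of 9 H3 and 0 of 5 H1 windows. CCAAT was in 3 of 12 H4 windows, in every H1, H2A, H2B and H3 window, and in 41.1% of all. ATTTGCAT, the octamer, was in 7 of 16 H2B and 6 of 15 H2A windows and in 1.97% of all. TATAAA was not particular to H4. It was in 8 of 12 H4, 10 of 15 H2A, 8 of 16 H2B, 4 of 9 H3 and 4 of 5 H1 windows, and in 15.7% of all. Among the H4 windows all but that of Hist1h4a held GGTCCG, that of Hist1h4i included.

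H4 is also the class with the shortest genes. In RefSeq the H4 genes span 375 to 455 bases (median 406), against medians of 505 for H2A, 490 for H2B, 502 for H3 and 776 for H1. A total of 3 genes of other classes were also under 460 bases, and they had a median of -0.12 (range -0.18 to -0.01). GENCODE and RefSeq give some of these genes unlike lengths. Hist1h2ak is at 393 bases in GENCODE and 536 in RefSeq, and Hist1h4d at 1138 in GENCODE and 402 in RefSeq. Windows of GENCODE length therefore do not match the genes by RefSeq length. On GENCODE transcripts of 300 to 450 bases, the 5 H4 genes had a median of -0.59, the 6 H2A genes -0.07, the 4 H2B genes -0.07 and the 2 H3 genes -0.21. In that window the 8 other protein-coding genes had a median of -0.30 and a range from -0.57 to 0.00, with none past 1.5-fold, and the 34 other genes of 450 to 600 bases a median of -0.04. Cufflinks values of transcripts near the fragment length depend on each library's fragment sizes, which the files do not give, and the part of length in the H4 difference was not tested. Within H4 the RefSeq lengths cover a narrow range, with Hist1h4c at 375 bases (-0.41), Hist1h4i at 403 bases (0.19) and Hist1h4h at 435 bases (-0.71). On longer GENCODE transcripts the H4 medians were -0.57 for 2 genes of 450 to 600 bases and -0.25 for 3 of 600 to 1000. They were -0.49 for 2 genes of 1000 to 2000 bases and -0.12 for 1 of 2000 to 4000.

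**Figure D4:**
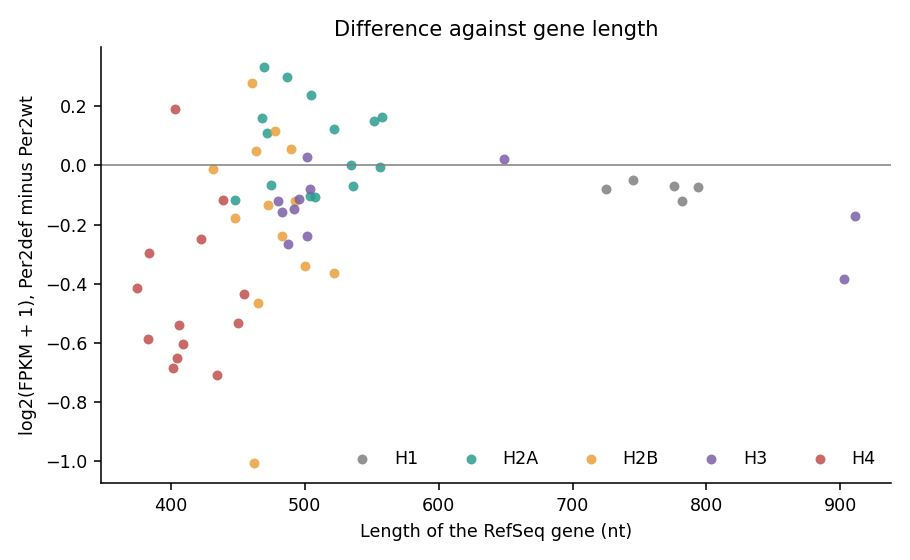
Difference in log2(FPKM + 1), Per2def minus Per2wt as labelled (y axis), against the length of the RefSeq gene in nucleotides (x axis) for the 57 histone genes under 1000 nt, coloured by class. H4 genes lie at the short end, from 375 to 455 nt, with 12 of 13 below 0, and Hist1h4i above 0 among them.

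Where a transcript ends was also set beside the difference, since some histone genes have annotated forms that run past the stem-loop. Of the H4 genes with a stem-loop match, the 5 whose GENCODE transcript ends within 100 bases of it had a median of -0.59 (range -0.71 to -0.53), and the 7 with longer transcripts a median of -0.30 (range -0.69 to 0.19). In H2A the medians were 0.13 for 6 short and 0.16 for 3 long models, in H2B -0.19 for 6 and -0.34 for 4, and in H3 -0.13 for 4 and -0.12 for 4. The annotation behind the deposited values is not given in the sources used here, so these models may not be the ones that were used.

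RNAs known to be made without a canonical poly(A) tail were set beside the histones, with few of them measured. Of 10 on the list, 5 were in the files and 4 at the floor or above. Of these 4, 3 were lower (4 under the scalings to a median ratio of 1 and to the upper quartile), against 38% of all genes, with a median of -0.39. Rmrp, the RNA of a ribonuclease that processes ribosomal RNA, was at 215 FPKM in the library labelled Per2def against 333 FPKM in the library labelled Per2wt (-0.63), past 1.5-fold. Rpph1, the RNA of RNase P, was at 142 FPKM labelled Per2def against 177 FPKM labelled Per2wt (-0.31). Terc, the telomerase RNA, was at 0.545 FPKM labelled Per2def against 1.13 FPKM labelled Per2wt (-0.46), and at -0.93 with a pseudocount of 0.1 FPKM. Malat1, whose 3′ end is a triple helix, was level at 214 FPKM labelled Per2def against 211 FPKM labelled Per2wt (0.02), with a sign that turns under 2 of the scalings. The part of untailed RNA carried through the selection in the H4 difference was not tested.

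Replacement histones, which are made outside S phase as well and have polyadenylated RNAs, were lower in 10 of 11 genes by small amounts (median -0.07), with none past 1.5-fold, where 38% of all genes were lower. H2afx, the variant phosphorylated at DNA breaks, was at 35.2 FPKM in the library labelled Per2def against 42.6 FPKM in the library labelled Per2wt (-0.27). It was followed by the linker variant gene H1f0, at 12.4 FPKM labelled Per2def against 13.9 FPKM labelled Per2wt (-0.15), and the macroH2A gene H2afy, at 378 FPKM labelled Per2def against 416 FPKM labelled Per2wt (-0.14). The other macroH2A gene, H2afy2, was the exception, at 1.25 FPKM labelled Per2def against 0.842 FPKM labelled Per2wt (0.29), and at 0.52 with a pseudocount of 0.1 FPKM.

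Genes that make and process histone RNA were not lower as a group. Of 22 measured genes for transcription, processing and decay, 16 had the higher value in the library labelled Per2def (median 0.12), none past 1.5-fold, where 62% of all genes were higher. Slbp was at 26.4 FPKM in the library labelled Per2def against 24.95 FPKM in the library labelled Per2wt (0.08). Npat, the cyclin E and CDK2 substrate that drives histone gene transcription, was at 2.54 FPKM labelled Per2def against 2.22 FPKM labelled Per2wt (0.13). Its partner at histone loci, Casp8ap2, was at 4.08 FPKM labelled Per2def against 3.10 FPKM labelled Per2wt (0.31). Ccne1, cyclin E itself, was at 7.78 FPKM labelled Per2def against 6.34 FPKM labelled Per2wt (0.26). The uridylyltransferase gene Zcchc6 was at 13.5 FPKM labelled Per2def against 10.9 FPKM labelled Per2wt (0.29), and Eri1, an exonuclease that trims histone RNA ends, at 7.70 FPKM labelled Per2def against 6.60 FPKM labelled Per2wt (0.20). Hinfp, chosen after its values were seen, was level at 2.22 FPKM labelled Per2def against 2.20 FPKM labelled Per2wt (0.01).

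Of 22 measured histone chaperone genes 14 were higher (median 0.06), none past 1.5-fold. That is 63.6%, close to the 62% of all genes, so it is not a result about chaperones. Nasp, which stores H3 and H4, was at 27.5 FPKM labelled Per2def against 26.1 FPKM labelled Per2wt (0.07). Atrx, part of the complex that places the replacement histone H3.3, was at 16.2 FPKM labelled Per2def against 13.6 FPKM labelled Per2wt (0.24). Cabin1 was at 10.6 FPKM labelled Per2def against 9.12 FPKM labelled Per2wt (0.20), and Mcm2, a helicase subunit that carries parental histones, at 47.6 FPKM labelled Per2def against 42.9 FPKM labelled Per2wt (0.15). The centromeric chaperone gene Hjurp went the other way, at 3.56 FPKM labelled Per2def against 4.35 FPKM labelled Per2wt (-0.23).

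**Figure D5:**
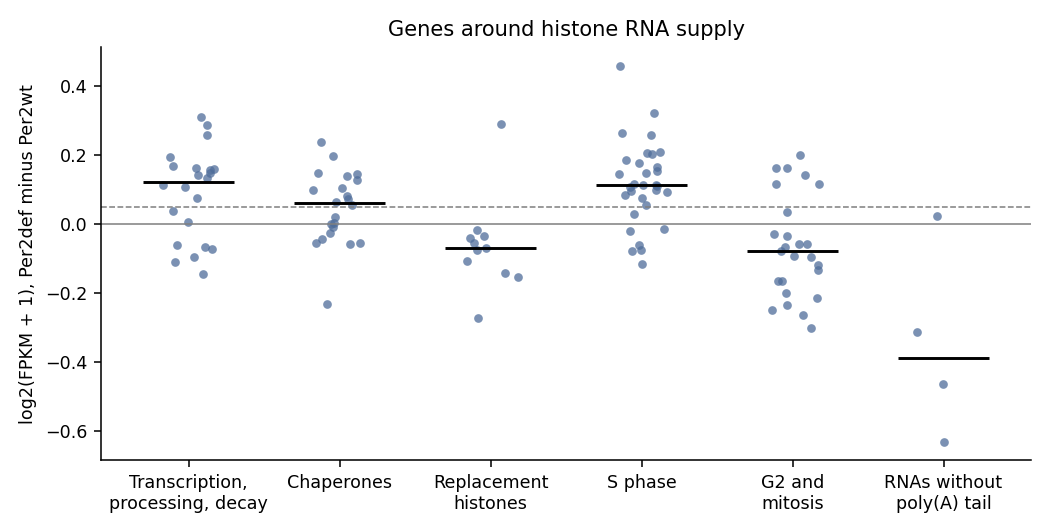
Difference in log2(FPKM + 1), Per2def minus Per2wt as labelled (y axis), of the genes at 1 FPKM or more in 6 lists around histone supply and the cell cycle (x axis, points spread sideways at random). Black bars are medians, the solid grey line is 0 and the dashed line the median of all genes (0.05). The transcription and processing list (0.12) and the S phase list (0.11) have medians above that line, and the list of RNAs without a poly(A) tail has the lowest median (-0.39).

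Cell cycle genes, set beside the histones because these are made in S phase, did not share 1 direction. S phase genes had a median of 0.11 with 25 of 31 higher, and genes of G2 and mitosis a median of -0.08 with 18 of 25 lower, where 62% of all genes were higher and 38% lower. With the libraries scaled to a median ratio of 1 the counts were 24 of 31 higher and 19 of 25 lower, against 50.8% and 49.2% of all genes. None of either list was past 1.5-fold.

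Both libraries carried stem and progenitor genes, with 12 of 14 markers at the floor or above, 8 of them lower, and a summed level of 293 FPKM in the library labelled Per2def and 301 FPKM in the library labelled Per2wt. This count and those of the marker lists below stand beside 62% of all genes higher and 38% lower. Cd34 was the most abundant, at 83.9 FPKM labelled Per2def against 90.5 FPKM labelled Per2wt (-0.11), while Slamf1 and Fgd5 were under the floor in both. Hlf (-0.34), Hoxa9 (-0.32) and Gata2 (-0.27) were the furthest below 0 of this list, and Cd48 (0.47) the furthest above. Markers of other cells moved between the libraries. The 10 neutrophil genes summed to 977 FPKM labelled Per2def and 514 FPKM labelled Per2wt, with 9 higher, S100a8 at 266 FPKM labelled Per2def against 109 FPKM labelled Per2wt (1.28), and Retnlg listed at 0 in the library labelled Per2def. The 11 erythroid genes summed to 703 FPKM labelled Per2def and 724 FPKM labelled Per2wt, and this near-level sum is made of genes that went opposite ways. The 4 globin genes were all lower, at 165 FPKM labelled Per2def and 361 FPKM labelled Per2wt in sum, with Hbb-bs at 0.00297 FPKM labelled Per2def against 29.2 FPKM labelled Per2wt (-4.91), Hba-a2 at -2.71, Hbb-bt at -0.77 and Hba-a1 at -0.75. Globin copies are near-identical, so single ones are uncertain. Of the 7 other erythroid genes 6 were higher, with a sum of 538 FPKM labelled Per2def and 363 FPKM labelled Per2wt, and Car1 at 294 FPKM labelled Per2def against 177 FPKM labelled Per2wt (0.72). Of the platelet list 6 of 8 genes were at the floor or above, with a sum of 34.4 FPKM labelled Per2def and 43.96 FPKM labelled Per2wt, 3 higher and 3 lower. Most of that gap was Thbs1, at 0.996 FPKM labelled Per2def against 8.70 FPKM labelled Per2wt (-2.28), and Pf4 was at 13.9 FPKM labelled Per2def against 15.8 FPKM labelled Per2wt (-0.17). Of the lymphocyte list 3 of 8 were, with 32.8 FPKM labelled Per2def and 25.5 FPKM labelled Per2wt, Nkg7 at 28.4 FPKM labelled Per2def against 23.7 FPKM labelled Per2wt (0.25), and Ms4a1 listed at 0 in the library labelled Per2wt. Of the stromal and endothelial list 2 of 7 were, with 13.2 FPKM labelled Per2def and 11.3 FPKM labelled Per2wt, and Pecam1 at 11.9 FPKM labelled Per2def against 10.1 FPKM labelled Per2wt (0.22). Their part in the histone values was not tested, and in bulk samples fewer cells of a type and less RNA per cell cannot be told apart.

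The files give no read totals. Among genes with 1 annotated transcript and low values, FPKM times length fell on steps of 0.0386 per kilobase in the library labelled Per2def and 0.0482 in the library labelled Per2wt, as single fragments would give. Of 311 such genes labelled Per2def and 296 labelled Per2wt at 1 to 6 steps, 58.5% and 59.5% lay within 0.15 of a whole step, where 30% would by even spacing. The steps were estimated from 76 and 66 of these same genes, so part of the excess over 30% is built in. By that estimate 1 fragment on a transcript of 400 bases is worth about 0.0966 FPKM in the library labelled Per2def and 0.121 FPKM in the library labelled Per2wt, which leaves the lowest members, such as Hist3h2ba, resting on few fragments. No interval was set, since these fragment values are an estimate and shared reads were split among copies.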

How the data were processed

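RNA was measured in 1 library labelled Per2def and 1 labelled Per2wt, grouped by the genotype label. Per the labels' protocols, poly(A) RNA was bound to oligo(dT) beads and a strand-marking kit was used. The deposited values are FPKM per gene, which the authors made with Cufflinks according to the file headers. Per the submitters' processing notes, CASAVA 1.8, TopHat and Bowtie2 were also used, with GRCm38 and mm10 as builds. No source used here gives the other versions, the annotation or the strand setting. Cufflinks splits reads that map to several copies, so values of near-identical histone genes can trade places.

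Of 24487 rows per file, 9 with the status for too much data and 27 with symbols turned into dates were left out, and rows sharing a symbol were summed (75 histone rows gave 68 symbols). Differences used a pseudocount of 1 FPKM and a floor of 1 FPKM in either library, with thresholds of 1.5-fold and 2-fold. No test was run, as there is 1 library per genotype. The members and gene lists were chosen with earlier results of these data known. Named genes were every member past 1.5-fold, the 4 most abundant and 2 most different of each class, the 4 most different of each pathway list with Slbp, Npat, Casp8ap2 and Nasp, and the most abundant marker of each cell type. For H4 every gene is given. Other members named for a stretch, a pair or the floor, markers other than the most abundant of their list, and Hinfp were chosen after their values were seen. Gene models and stem-loops came from GENCODE M21 and promoters and gene lengths from RefSeq, matched by older symbol for all 63 genes. Calculations used Python 3.11.15, numpy 2.4.6 and pandas 2.3.3, and were tested on simulated data.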

Additional observations from a re-analysis of the deposited data

How the results depend on the processing

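No paired analysis was possible because there is 1 library per genotype, and leaving out a replicate cannot be done for the same reason. Alternatives were 3 scalings of the libraries, pseudocounts of 0.1 and 0.5 FPKM, floors of 0 and 5 FPKM, taking only the highest of the rows that share a symbol, and leaving out the most abundant member of each class. Leaving out Hist1h4i or the pseudogene Hist3h2bb-ps was added after seeing the data. Across these the log2 difference of the H4 sum ran from -0.55 to -0.46, that of H2A from 0.02 to 0.08, of H2B from -0.19 to -0.09, of H3 from -0.18 to -0.11 and of H1 from -0.14 to -0.07. The difference of the Hist2 sum, -0.0055, turned to 0.0061 with no floor and to 0.0022 with a floor of 5 FPKM, and that of Hist3 was -0.11 with the latter floor, as 2 of its 3 genes then drop out. With no floor 1 member was at least 1.5-fold higher, Hist2h2aa2, and with a floor of 5 FPKM 0 were at least 2-fold lower, as Hist3h2ba drops out. The median of the lymphocyte list, 0.72, was 1.01 and 0.85 with pseudocounts of 0.1 and 0.5 FPKM, 0.21 with no floor and 0.25 with a floor of 5 FPKM, and that of the platelet list, -0.08, was 0.035 with no floor. Single genes near 0 changed sign under a scaling to the median ratio (Hist1h2bg to -0.0016, Hist2h3b to -0.021, Hist2h3c2 to -0.028, Malat1 to -0.031) or to the upper quartile (Hist2h3b to -0.0041, Hist2h3c2 to -0.011, Malat1 to -0.013), and Hist2h2aa1 was 0.010 by its highest row. The other 346 values of sums, counts and medians moved by less than 0.1 on the log2 scale or 1.5 times in count. Absolute depth is an estimate, and low members such as Hist3h2ba are limited by it most.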
